A study of Mus musculus with 8 samples.

Results

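The genes described here encode the neuronal cytoskeleton: the neurofilament subunits Nefl, Nefm and Nefh with the related filament protein Ina, the microtubule-associated proteins Map2, Mapt, Map1b and Map1a, the neuronal tubulin Tubb3 and the microtubule regulator Stmn2. They were chosen by name, as 10 of the 24081 genes of the table, and all 10 were among the 15123 genes that passed the filter on low values. RNA was sequenced from the brainstem (BS) of 8 untreated mice on a C57BL/6 background, 4 per group, which the labels place at P19 and the methods at P18/P19. Both groups carried Nestin Tv-a, p53 fl/fl and Olig2-Tv-a/Cre, so that both lost the tumor suppressor p53 in cells with Olig2-driven Cre. The KI mice also carried hPDGFRA fl/+, a human PDGFRA cDNA in the Rosa26 locus behind a CAG promoter and a stop cassette that Cre removes. Olig2-Cre is active in progenitors that give rise to oligodendrocytes (OL) and motor neurons, so that expression of the transgene need not be limited to glia. Levels are normalized counts, that is, reads per gene divided by a size factor for the library. The fold changes are limma estimates on log2(normalized count + 1), KI minus control, and a gene was called at an adjusted p under 0.05 over the 15123 genes.

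Neurofilaments are the intermediate filaments of large axons, in which Nefl forms the core with Nefm and Nefh, whose long tails project from the filament, and Ina, the alpha-internexin, co-assembles with them in the central nervous system. Microtubules are built of tubulin dimers and are bound by associated proteins that differ between cell compartments: Map2 is known mainly from dendrites and Mapt, the tau protein, mainly from axons. In the brainstem, neurofilaments are abundant in the large neurons of the cranial nerve nuclei and in long fiber tracts.

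The promoters of Ina and Map2 are shown because these are the called genes, described below, for which the RefSeq promoter table (GRCm38.p6, 250 bases before to 50 after a start) has an entry. It has one for 5 of the 10 genes. GC boxes (GGGCGG on either strand, read as CCGCCC on the other) are in capitals. The Ina window lies at chr19:47014431-47014730 on the plus strand, with a GC content of 71.7%. The Map2 window lies at chr1:66175079-66175378 on the plus strand, with a GC content of 77.7%, at a start upstream of the interval that the deposited table gives for Map2.
Ina: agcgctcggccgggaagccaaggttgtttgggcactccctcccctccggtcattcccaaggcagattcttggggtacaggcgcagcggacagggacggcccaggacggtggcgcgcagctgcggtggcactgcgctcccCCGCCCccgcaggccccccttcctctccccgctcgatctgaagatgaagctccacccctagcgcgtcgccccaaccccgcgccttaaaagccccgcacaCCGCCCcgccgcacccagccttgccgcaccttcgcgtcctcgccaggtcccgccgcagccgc
Map2: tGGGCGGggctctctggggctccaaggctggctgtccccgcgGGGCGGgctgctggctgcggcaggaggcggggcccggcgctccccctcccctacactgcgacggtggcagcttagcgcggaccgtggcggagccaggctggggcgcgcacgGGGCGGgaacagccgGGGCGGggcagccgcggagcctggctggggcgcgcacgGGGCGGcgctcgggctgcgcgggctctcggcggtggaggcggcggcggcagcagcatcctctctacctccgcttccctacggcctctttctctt
Ina, which was lower in KI, had 2 GC boxes and Map2, which was higher, had 5. Map1b had 2, Map1a 4 and Tubb3 2, and a GC box was present in 35.7% of the 32851 promoters of the table. The motif TATAAA, searched on both strands, was found in the Map1b window and in none of the other 4 windows, against 13.6% of all promoters. These matches describe the letters in the windows and were not tested against expression.

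Of the 10 genes, 1 (Map2) was higher and 2 (Mapt and Ina) were lower in KI mice, and 7 were not called. Of all genes tested, 24.4% were called, 12.0% higher and 12.4% lower, so that 3 of 10 is near the share of all genes. The same 3 genes were those whose groups did not overlap, a pattern seen in 25.5% of all genes tested, with KI above in 12.7% and below in 12.8%. The fold change was negative for 6 genes and positive for 4, with a median of -0.29 on the log2 scale, against 0.00 for all genes tested. At an unadjusted p under 0.05 there were 7 of the 10 genes, against 39.0% of all genes tested. With the DESeq2 Wald test on the recovered reads 6 of the 10 were called, adding Nefm (adjusted p = 0.0107), Nefh (adjusted p = 0.0474) and Map1b (adjusted p = 0.0421) as lower, where 29.2% of all genes were called, 14.9% higher and 14.3% lower. In limma the 3 calls became 0 without control replicate 2 or KI replicate 2, 1 without control replicate 1 or 3, and 5 without control replicate 4 or KI replicate 4. Calls over all genes moved too, from 3685 to 888 without control replicate 2 and 1002 without KI replicate 2. They were 2317 and 1871 without control replicate 1 or 3, 3348 without control replicate 4 and 5292 without KI replicate 4.

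**Figure D1:**
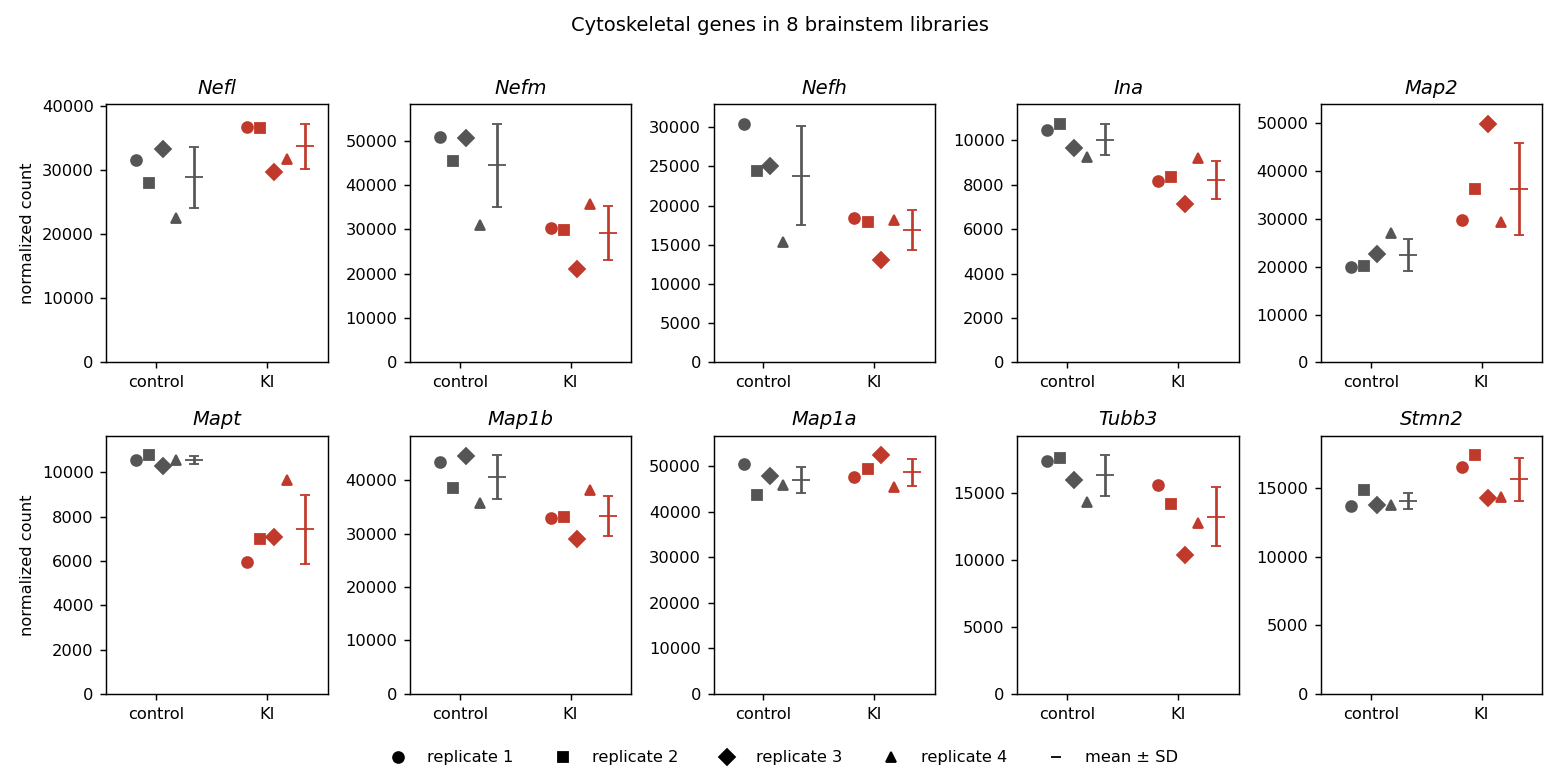
Normalized counts (vertical axis) of the 10 genes in each of the 4 control and 4 KI libraries, with the symbol giving the replicate and the bar the mean ± SD. The KI libraries lie above all controls for Map2 and below all controls for Mapt and Ina, and the groups overlap for the other 7 genes.

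Before the single genes, the libraries themselves were compared. The depth, in reads recovered from the table, was 24816146 to 27716846 in the control libraries and 21492789 to 24458589 in the KI libraries, without overlap. Reads of the human transgene were not analysed here. Reads counted at mouse Pdgfra came to 2565 to 3087 normalized counts in the controls, 8939 to 11437 in KI replicates 1 to 3 and 3269 in KI replicate 4. Alignment was to the mouse genome, and whether these counts include reads of the human cDNA was not tested. Gt(ROSA)26Sor, the noncoding transcript of the targeted locus, had 82.9 to 93.9 in the controls, 573 to 605 in KI replicates 1 to 3 and 328 in KI replicate 4. Ttr, a marker of choroid plexus, stood at 44.9 normalized counts for control replicate 4 and at 237 for KI replicate 3, against 14985 to 97274 in the other 6 libraries. Xist was high in control replicates 2 and 3 and KI replicate 4. The only KI library high in Xist was thus also the KI library lowest in Pdgfra. A fit with Xist as a covariate cannot tell these apart among the KI libraries. To check the labelled tissue, marker lists were summed, and brainstem position markers summed to 1539 to 4252 in controls and 2141 to 5839 in KI mice, and forebrain markers to at most 205 in any library. The log2 fold changes of the brainstem position markers were positive for 7 and negative for 1, with a median of 0.57 and 0 called. Cerebellar markers summed to 1339 to 2923 in controls and 1532 to 4128 in KI mice, and the cerebellar content of the libraries was not tested. In bulk tissue, fewer cells of a type and less RNA per cell cannot be told apart.

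Within the neurofilament family, the subunits did not share a direction. Nefm, Nefh and Ina had lower means in KI mice, and Nefl had a higher one. Of these 4 genes, 1 was called.

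Ina (chr19:47014697-47024346, plus strand) was the called member of the family. Its normalized counts were 10445, 10756, 9637 and 9272 in control replicates 1 to 4 and 8170, 8362, 7144 and 9193 in KI replicates 1 to 4. All 4 KI libraries lay below all controls, but KI replicate 4 was close to the lowest control. The means were 10028 ± 690 and 8217 ± 842 (SD, n = 4 per group), a log2 fold change of -0.29 (SE 0.0889, limma adjusted p = 0.0422). The call held in 2 of the 8 fits that left out 1 library, those without control replicate 4 or KI replicate 4, and the log2 fold change ranged from -0.35 to -0.23 in those fits. The call was also lost with upper-quartile scaling (adjusted p = 0.0574), with no filter on low counts (adjusted p = 0.0560) and with Xist as a covariate (log2 fold change -0.24, adjusted p = 0.104). After a correction for GC content and length it was lost as well, with a log2 fold change of -0.18 (adjusted p = 0.164). The exons of Ina share 456 bases, or 14.1% of their length, with Nt5c2 on the other strand.

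Nefm (chr14:68119544-68125004, minus strand), the medium subunit, had the largest negative fold change of the 10 genes. Its normalized counts were 50889, 45475, 50552 and 30895 in control replicates 1 to 4 and 30355, 29778, 20942 and 35706 in KI replicates 1 to 4. The first 3 controls stood above all KI libraries, but control replicate 4 fell below KI replicate 4. The means were 44453 ± 9371 and 29195 ± 6115 (SD, n = 4), a log2 fold change of -0.60 with a 95% interval of -1.06 to -0.15, and limma's adjusted p was 0.0550. With 1 library left out, the log2 fold change ranged from -0.77 to -0.45 and was called in 2 of 8 fits, those without control replicate 4 (limma adjusted p = 0.0231) and without KI replicate 4 (adjusted p = 0.0245). In the other 6 fits the adjusted p was 0.0971 to 0.133, and the smallest change was that without KI replicate 3 (log2 fold change -0.45, adjusted p = 0.117).

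Nefh (chr11:4938755-4948064, minus strand), the heavy subunit, followed the same order. Normalized counts of Nefh were 30472, 24438, 25078 and 15329 in control replicates 1 to 4 and 18378, 17921, 13086 and 18230 in KI replicates 1 to 4. Here too control replicate 4 was low, below 3 of the 4 KI libraries. The log2 fold change was -0.47 (95% interval -0.92 to -0.01, limma adjusted p = 0.121). With 1 library left out it ranged from -0.66 without control replicate 4, the 1 of 8 fits in which it was called (limma adjusted p = 0.0221), to -0.33 without control replicate 1 (adjusted p = 0.264). The pair of libraries low in Ttr (control replicate 4 and KI replicate 3) were also the lowest of their groups in Nefm and Nefh. The same held for Nefl, Ina, Map1b and Tubb3, and in Map2 these 2 libraries were the highest of their groups. Both libraries were the lowest in Chat, the acetylcholine-synthesizing enzyme of motor neurons, at 205 and 152 normalized counts against 492 to 608 in the other controls and 250 to 370 in the other KI libraries. Prph, an intermediate filament of peripheral and motor neurons, was likewise lowest in these libraries, at 294 and 405 against 957 to 1439 and 660 to 965. Slc18a3, Slc5a7 and Mnx1 of the same marker list were lowest there too. Isl1 of that list was lowest in control replicate 4 at 6.8, but not in KI replicate 3. There it had 40.3, above 30.5 and 14.9 in KI replicates 1 and 4. Cholinergic and motor neuron markers as a list had 0 of 6 genes called, and summed to 1318 to 4533 normalized counts in controls and 1161 to 3006 in KI mice. The part of these markers in the neurofilament values was not tested. Without both libraries, where 12.2% of all genes were called, 6.07% higher and 6.14% lower, limma called Nefm (log2 fold change -0.62, adjusted p = 0.0323), Nefh (-0.55, adjusted p = 0.0331) and Map2 (0.60, adjusted p = 0.0331), whereas Ina (-0.26, adjusted p = 0.0711) and Mapt (-0.51, adjusted p = 0.0661) were no longer called, with fold changes close to those over all libraries.

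Nefl (chr14:68083883-68087737, plus strand), the light subunit, moved little and in the other direction. In normalized counts, Nefl had 31552, 28015, 33376 and 22619 in control replicates 1 to 4 and 36792, 36662, 29667 and 31794 in KI replicates 1 to 4. The groups overlapped, with 2 KI libraries above all controls. The log2 fold change was 0.23 (95% interval -0.07 to 0.54, limma adjusted p = 0.236). In GENCODE M21 the exons of Nefl and Nefm, on opposite strands, share 1108 bases, which are 32.8% of the exon bases of Nefl and 19.2% of those of Nefm. The authors counted without strand and left out ambiguous reads, so that both counts can miss reads there if their annotation holds these exons. The intervals that the deposited table gives for Nefl and Nefm, printed above, do not overlap. Whether the counting used these intervals is not stated.

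The subunits were therefore also compared within each library, where library size cancels. The ratio of Nefm to Nefl was 1.61, 1.62, 1.51 and 1.37 in control replicates 1 to 4 and 0.825, 0.812, 0.706 and 1.12 in KI replicates 1 to 4. All KI libraries had a lower ratio than all controls, including the pair low in Ttr. The ratio of Nefh to Nefl was 0.678 to 0.966 in controls and 0.441 to 0.573 in KI mice, again without overlap. For Ina to Nefl the ranges were 0.289 to 0.410 and 0.222 to 0.289, with overlap. The 5 ratios shown were chosen after the values were seen and are given without a test.

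**Figure D2:**
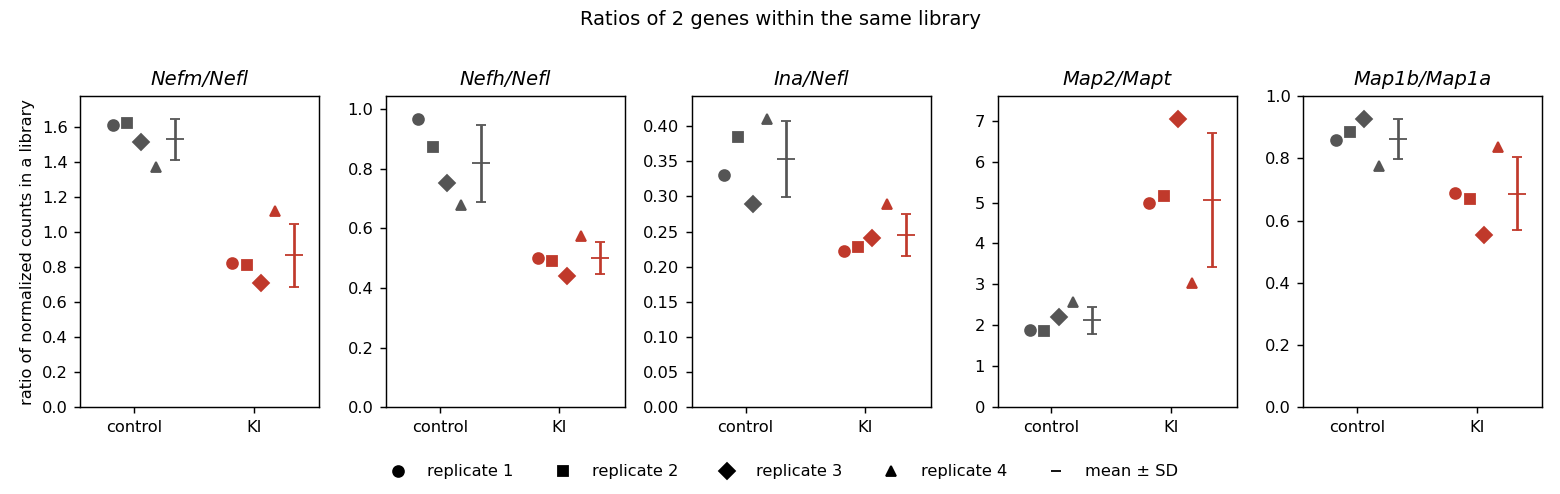
Ratio of the normalized counts of 2 genes in the same library, for 5 gene pairs in 4 control and 4 KI libraries, with the symbol giving the replicate and the bar the mean ± SD. Nefm/Nefl and Nefh/Nefl are lower in each KI library than in each control. Map2/Mapt is higher, which the separation of the groups in each of these 2 genes already fixes.

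Among the microtubule-associated proteins, Map2 and Mapt were called in opposite directions, and Map1b and Map1a were not called. Map2 (chr1:66321723-66442583, plus strand) was the member with the largest fold change. Its normalized counts were 19843, 20162, 22635 and 27069 in control replicates 1 to 4 and 29744, 36221, 49911 and 29352 in KI replicates 1 to 4. All KI libraries lay above all controls, and KI replicate 3 stood highest. The means were 22427 ± 3336 and 36307 ± 9601 (SD, n = 4), a log2 fold change of 0.67 (SE 0.178, limma adjusted p = 0.0265), or 1.59-fold. It stayed between 0.51 and 0.77 when 1 library was left out, and was called in 4 of those 8 fits, with adjusted p from 0.0113 to 0.0822. It was not called without control replicate 1, 2 or 3 or without KI replicate 2, nor with Xist as a covariate (log2 fold change 0.59, adjusted p = 0.0718).

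Mapt (chr11:104231435-104332089, plus strand) fell in KI mice. Its normalized counts were 10580, 10784, 10309 and 10566 in control replicates 1 to 4 and 5955, 7008, 7089 and 9658 in KI replicates 1 to 4. The controls lay close together, while the KI libraries spread from well below them to just under them. The means were 10560 ± 194 and 7428 ± 1574 (SD, n = 4), a log2 fold change of -0.53 (SE 0.128, limma adjusted p = 0.0201). It was called in 6 of the 8 fits with 1 library left out, the exceptions being those without control replicate 2 and without KI replicate 2. The call was also lost after the correction for GC content and length (log2 fold change -0.40, adjusted p = 0.0550). KI replicate 4, highest of the KI libraries in Mapt, was also the KI library with the lowest Pdgfra.

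Tau is made by oligodendrocytes as well as neurons, and markers of the OL lineage moved with the groups. Of 9 OL markers 5 were lower and 0 higher, with sums of 1157914 to 1759936 normalized counts in controls and 476446 to 1441503 in KI mice. Of 8 markers of oligodendrocyte progenitors (OPC) all 8 were lower, with sums of 29441 to 32428 and 5422 to 21522. KI replicate 4 was the highest KI library in both lists. Of 9 astrocyte markers 6 were higher, with sums of 159716 to 194735 and 212454 to 378764. Of 18 pan-neuronal markers 1 was higher and 3 were lower, which is 22.2% against the 24.4% of all genes tested. Their sums were 336915 to 373042 in controls and 311341 to 343788 in KI mice, with a median log2 fold change of -0.03. Monoamine neuron markers, with 1 of 7 called, had 7 negative and 0 positive log2 fold changes, with a median of -1.10. No marker list summed to 0 in a library, and the part of these cell types in the Mapt, Map2 and Ina values was not tested. When each library was rescaled to the pan-neuronal markers, Map2 and Mapt were still called, and Ina was not (log2 fold change -0.22, limma adjusted p = 0.129).

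**Figure D3:**
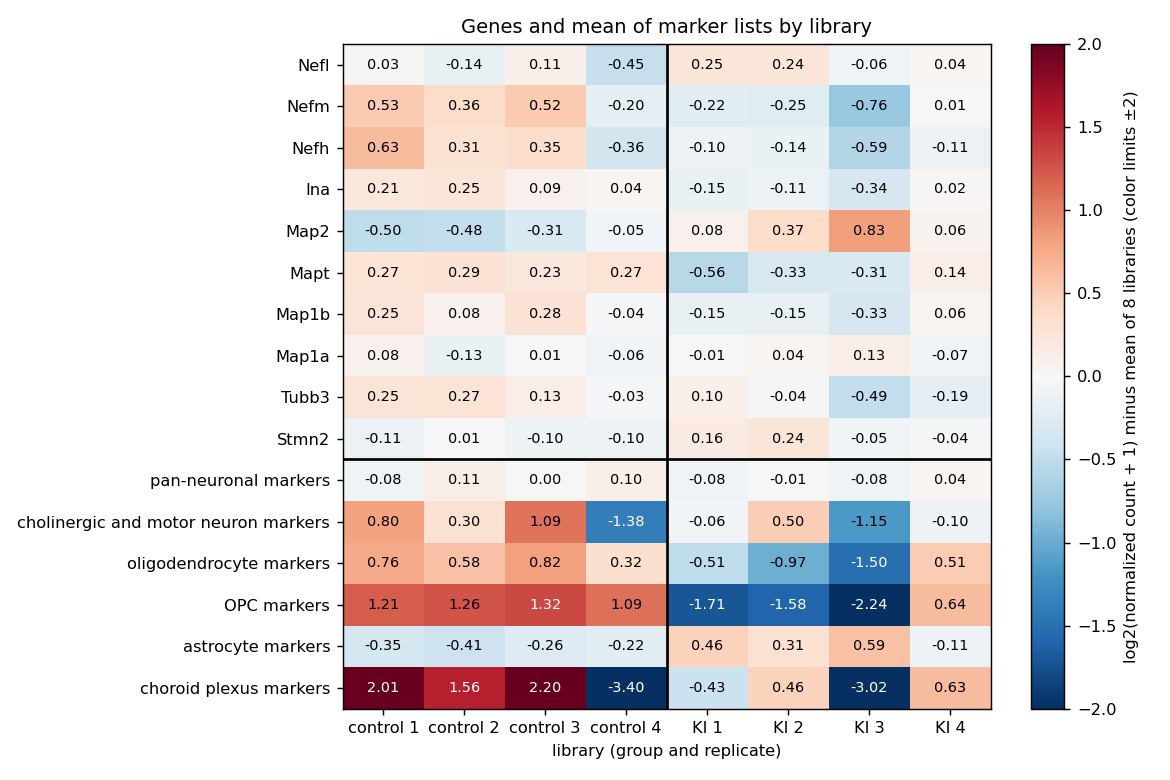
Log2(normalized count + 1) minus the mean of the 8 libraries, for the 10 genes and for the mean of 6 marker lists (rows) in each library (columns), with color limits at ±2. KI replicate 4 differs from the other KI libraries in OL and OPC markers, and control replicate 4 and KI replicate 3 stand apart in choroid plexus and in cholinergic and motor neuron markers.

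The ratio of Map2 to Mapt in the same library was 1.88, 1.87, 2.20 and 2.56 in control replicates 1 to 4 and 4.99, 5.17, 7.04 and 3.04 in KI replicates 1 to 4. The groups did not overlap, which was fixed by every KI library lying above all controls in Map2 and below them in Mapt. The means were 2.13 ± 0.328 and 5.06 ± 1.64 (SD, n = 4). Both genes are spliced into several isoforms, which counts per gene cannot separate.

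Map1b (chr13:99421463-99516602, minus strand), a microtubule-associated protein prominent in growing axons, had a lower mean in KI mice. Normalized counts of Map1b were 43442, 38590, 44457 and 35618 in control replicates 1 to 4 and 32840, 33005, 28988 and 38075 in KI replicates 1 to 4. As for Nefm, KI replicate 4 lay above control replicate 4 and the groups overlapped. The log2 fold change was -0.29 (95% interval -0.54 to -0.03, limma adjusted p = 0.0922), and it was called in 1 of the 8 fits with 1 library left out, that without KI replicate 4 (-0.35, adjusted p = 0.0267). In the other 7 fits it was -0.35 to -0.22, with adjusted p from 0.0652 to 0.212. Map1a (chr2:121289601-121310832, plus strand), its relative in mature neurons, had 50514, 43670, 47956 and 45953 normalized counts in control replicates 1 to 4 and 47619, 49316, 52454 and 45468 in KI replicates 1 to 4. Its log2 fold change was 0.05 with a 95% interval of -0.15 to 0.26 (limma adjusted p = 0.716). The ratio of Map1b to Map1a was 0.775 to 0.927 in controls and 0.553 to 0.837 in KI mice, with overlap.

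Tubb3 and Stmn2 were not called. Tubb3 (chr8:123411563-123422010, plus strand), the neuron-specific beta-tubulin, had 17372, 17544, 15912 and 14294 normalized counts in control replicates 1 to 4 and 15564, 14162, 10380 and 12754 in KI replicates 1 to 4. One KI library lay within the range of the controls, and the log2 fold change was -0.31 (95% interval -0.60 to -0.02, limma adjusted p = 0.102). Stmn2 (chr3:8509526-8561604, plus strand), which binds tubulin dimers and is needed for axon growth and repair, had 13681, 14871, 13760 and 13747 in control replicates 1 to 4 and 16488, 17385, 14263 and 14362 in KI replicates 1 to 4. KI replicates 1 and 2 stood above all controls, whereas 3 and 4 fell among them, and the log2 fold change was 0.15 (95% interval -0.04 to 0.34, limma adjusted p = 0.212).

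**Figure D4:**
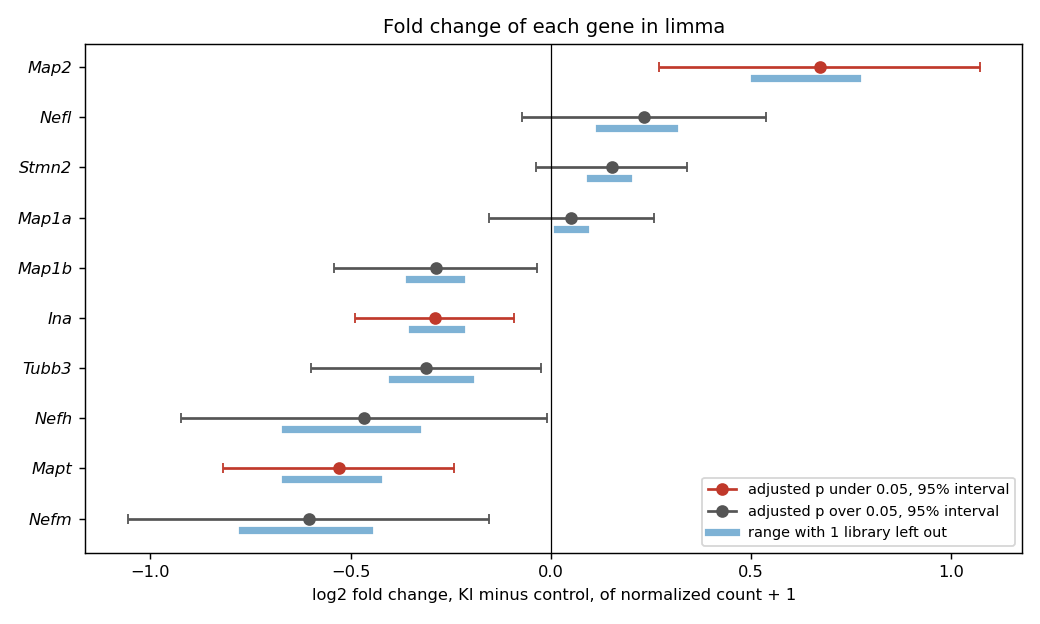
Log2 fold change of each gene, KI minus control, in limma, with its 95% interval and, as a blue bar, the range of the estimate when 1 of the 8 libraries is left out. Only the estimates of Map2, Mapt and Ina have an adjusted p under 0.05, and no bar crosses 0.

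To compare levels between genes, normalized counts were divided by the exon length in kilobases (all exons of GENCODE M21). In controls Tubb3 and Nefl were highest, at 8716 ± 810 and 8547 ± 1401 normalized counts per kb (SD, n = 4), followed by Nefm at 7688 ± 1621 and Nefh at 5966 ± 1572. The ranges of neighbors in this order overlapped down to Map1a, at 3865 ± 239. Ina was next at 3095 ± 213, and its range overlapped neither that of Map1a nor that of Map1b. Map1b at 2558 ± 262 and Stmn2 at 2502 ± 102 overlapped each other, as did Mapt at 1402 ± 26 and Map2 at 1363 ± 203. In KI mice Nefl stood highest, at 9979 ± 1056, above the range of Tubb3 at 7074 ± 1183, and Mapt stood lowest, at 986 ± 209, below the range of Map1b at 2097 ± 235. Places in this order depend on the length used. Per kb of the longest transcript, controls had 12080 for Nefm, above Tubb3 at 8716 and Nefl at 8547. By that length Stmn2 at 4106, Map2 at 3584 and Map1b at 3432 were all above Ina at 3095.

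The genes whose profile over the 8 libraries came nearest to a called member were found by the root mean square (RMS) difference of their centered log2 values, over 13108 genes. For Map2 these were Rora, a nuclear receptor of neurons (RMS difference 0.0578), Hlf, a transcription factor of the PAR bZIP family (0.0805), and Nrsn1, a neuronal vesicle protein (0.0882), where the median of all genes was 0.450. For Mapt they were Cep170, a centrosomal protein (0.0570), Elavl3, an RNA-binding protein of neurons and also one of the pan-neuronal markers (0.0601), and Dpp9, a dipeptidyl peptidase (0.0671), with a median of 0.359. For Ina they were Dync1i1, the neuronal intermediate chain of dynein (0.0311), Bysl, a ribosome assembly factor (0.0415), and Ehd3, an endocytic recycling protein (0.0417), with a median of 0.253. These are descriptions of likeness over 8 shared libraries.

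Genes of the same pathways were read from 8 lists of 124 genes, 123 of which were tested. In all, 8 were higher and 21 lower in KI mice, which is 23.6% against the 24.4% of all genes tested, with a median log2 fold change of -0.11. The 29 calls became 5 without control replicate 2, 5 without KI replicate 2 and 54 without KI replicate 4. Among the 15 other tubulins 0 were higher and 2 lower (13.3%). Tubb4a, a beta-tubulin abundant in oligodendrocytes, fell from 33289 to 15805 normalized counts (log2 fold change -1.17, limma adjusted p = 0.0150), and KI replicate 4 was its highest KI library at 26112 against 9909 to 13995 in the others. It was not called without control replicate 2 or without KI replicate 2. Tuba1a, the main alpha-tubulin of developing neurons, fell by 0.42 on the log2 scale (limma adjusted p = 0.0479), but it was called in 1 of 8 fits with 1 library left out, that without KI replicate 4, and it has near-identical copies whose shared reads were not counted.

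Of 23 other microtubule-associated proteins 6 were lower and 0 higher, which is 26.1% against the 24.4% of all genes tested. Among the 6 were the cytoplasmic linker proteins Clip3 (log2 fold change -0.48, limma adjusted p = 0.00882) and Clip2 (-0.57, adjusted p = 0.0140), and Map7d1, a kinesin-recruiting protein (-0.64, adjusted p = 0.0147). Clip3 was called in all 8 fits with 1 library left out, and Clip2 and Map7d1 in all but those without control replicate 2 or KI replicate 2. After the correction for GC content and length, Clip2 and Map7d1 were not called either. Of 3 other stathmins, Stmn4 was lower (log2 fold change -1.07, limma adjusted p = 0.0291). Its groups overlapped, with KI replicate 4 at 5261 normalized counts above control replicate 4 at 4497. The call held in 2 of the 8 fits with 1 library left out, those without either of these libraries, and was lost with edgeR and without the pair low in Ttr (log2 fold change -1.05, adjusted p = 0.0695). Of 9 other intermediate filament genes 2 (22.2%) were lower, the nuclear lamins Lmnb2 (log2 fold change -0.38, limma adjusted p = 0.0417) and Lmna (-0.40, adjusted p = 0.0457). The call of Lmnb2 held without KI replicate 4 and was lost in the other 7 fits with 1 library left out, and that of Lmna held without control replicate 4 or KI replicate 4 and was lost in the other 6. Among the cytoplasmic ones, the fold changes of Prph (-0.40), Vim (0.49), Gfap (0.53) and Nes (0.10) did not pass the test. Of 24 tubulin-modifying and severing enzymes 8.33% were called. Tbca, a tubulin-folding cofactor, was higher (log2 fold change 0.67, limma adjusted p = 0.00971) and Atat1, the alpha-tubulin acetyltransferase, lower (-0.78, adjusted p = 0.0131). Both were called in all 8 fits with 1 library left out, but Tbca was not after the correction for GC content and length (adjusted p = 0.316).

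Of 23 motor genes of axonal transport, 4 were higher and 6 lower, which is 43.5% against the 24.4% of all genes tested. These 10 calls became 2 without control replicate 2, 2 without KI replicate 2 and 17 without KI replicate 4. The heavy chains of kinesin-1, the motor that carries neurofilaments outward along axons, were 3 of the 4 that rose. Kif5b rose from 8905 to 13015 normalized counts (log2 fold change 0.55, SE 0.102, limma adjusted p = 0.0112), and all 4 KI libraries, at 11812 to 13711, lay above all controls, at 7643 to 10488. It was called in all 8 fits with 1 library left out. Kif5a and Kif5c, named after their values were seen, had log2 fold changes of 0.55 (limma adjusted p = 0.0398) and 0.56 (adjusted p = 0.0211). For both of them control replicate 4 lay above KI replicate 4, and they were called in 2 and 3 of those 8 fits. Both calls were lost without control replicate 1, 2 or 3 or KI replicate 1 or 2, and that of Kif5a also without KI replicate 3. The motors that fell included Kif3a of kinesin-2 (-0.45, limma adjusted p = 0.0112) and Kif21b (-0.36, adjusted p = 0.0171). Kif3a was called in all 8 fits with 1 library left out, and Kif21b was not without control replicate 2 or KI replicate 2. Kif21b was also not called in limma without the pair low in Ttr (adjusted p = 0.0509).

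Of 17 kinases and phosphatases of tau and neurofilaments 3 were higher and 2 lower, which is 29.4% against the 24.4% of all genes tested. Ppp3cb, a catalytic subunit of calcineurin (log2 fold change 0.49, limma adjusted p = 0.0147), and Ttbk2, a tau-tubulin kinase (0.30, adjusted p = 0.0383), were higher, and Ppp2r2a, a regulatory subunit of protein phosphatase 2A (-0.38, adjusted p = 0.0398), was lower. With 1 library left out, Ppp3cb was called in 6 of 8 fits, the exceptions being those without control replicate 2 or KI replicate 2. Ttbk2 was called in 3, those without control replicate 3 or KI replicate 1 or 4, and Ppp2r2a in 1, that without KI replicate 4. Ppp3cb and Ttbk2 were not called after the correction for GC content and length. Ttbk2 and Ppp2r2a were not called without the pair low in Ttr. Of 9 genes of the spectrin, ankyrin and adducin membrane skeleton 11.1% were called. Add1 was lower (log2 fold change -0.51, limma adjusted p = 0.0165) and 0 were higher. The call of Add1 was lost without control replicate 2 or KI replicate 2.

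**Figure D5:**
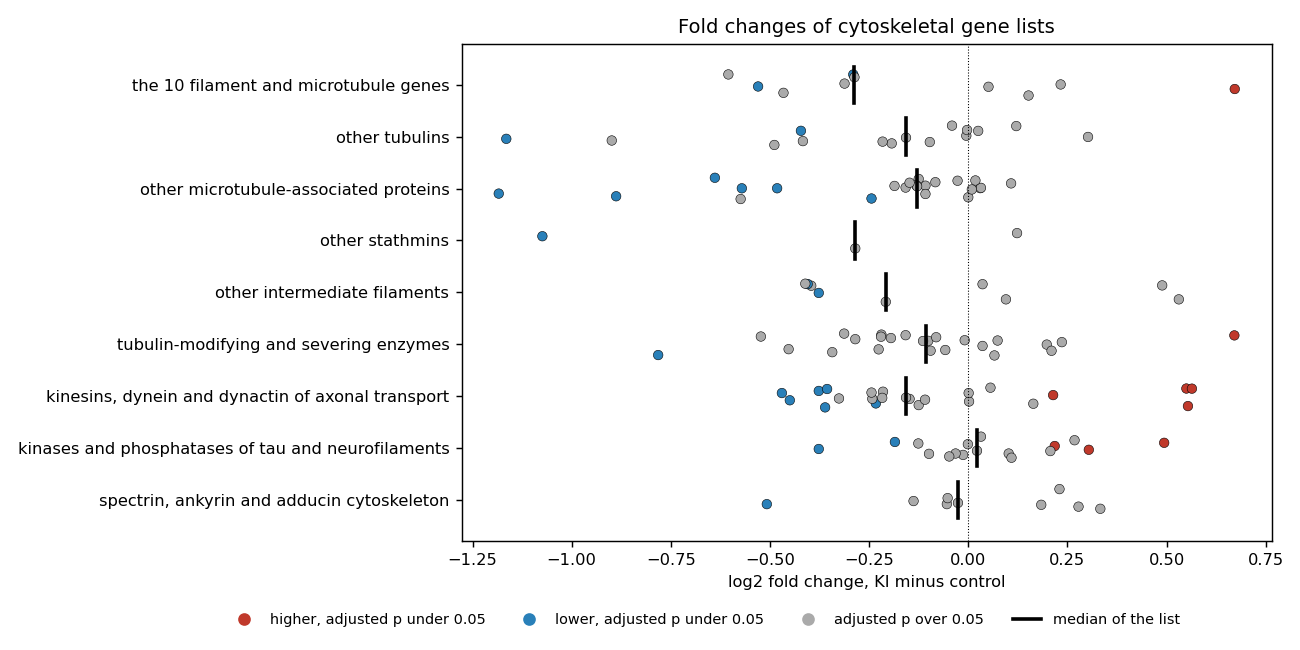
Log2 fold change, KI minus control, of each tested gene (points) in the 10 filament and microtubule genes and in 8 related lists, with the median of each list as a black bar. Genes lower at an adjusted p under 0.05 (blue) number 21 in the related lists and those higher (red) 8, with most of the higher ones among the motors and the kinases and phosphatases.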

How the data were processed

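The 8 BS libraries, 4 per group, came as 1 table of the authors. Per the submitters' notes, reads were aligned to mm10 with STAR 2.7, counted with HTSeq and analyzed with DESeq2. The methods give unstranded union counting, a minimum alignment quality of 10, and no counting of nonunique or ambiguous reads. The Ensembl release is not given in the sources used here. The deposited signal of a gene is its number of reads after scaling by the DESeq2 size factor of the library. Undoing the division gave whole reads for 100% of values, within 0.01. The 628 repeated lines were dropped. The fold changes, statistics and p-values of the authors' own comparison, also in the table, were not used.

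Genes averaging 10 or more normalized counts were compared with limma 3.58.1 (R 4.3.3, variance trend, pseudocount 1, Benjamini-Hochberg threshold 0.05), which was used because the values are normalized. Fold changes on this scale understate those of low genes. The steps were tested on simulated counts with known changes. These were drawn independently per gene and library, without the differences between libraries that many genes share here. That run is therefore no check of the calls made in these libraries. The labels do not say how the mice relate beyond their group, and p-values measure only the spread between these libraries. The methods state that mutant mice were euthanized together with littermate controls, so litters may be shared between the groups, but which libraries share one is not given. Alternatives included edgeR 4.0.16 and DESeq2 1.42.0 on the recovered reads, TMM and upper-quartile scaling, other filters and pseudocounts, a replicate block, Xist as a covariate, a loess correction for GC content and length, rescaling to pan-neuronal markers and leaving out libraries.

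The members, lists and alternatives were chosen with earlier results of these data known. Named were all 10 members, of each related list up to 3 called genes ranked by p and, if these went one way, the first in the other, for each called member the 3 nearest profiles among genes with a mean of at least 50, and Pdgfra, Gt(ROSA)26Sor, Xist and Ttr as checks. Marker genes and others outside this rule were chosen after their values were seen. Of 243 distinct list genes 242 were found. Lists of transmitter-class neuron (0 of 6 called), monoamine neuron (1 of 7, lower), microglia (0 of 8), endothelial (1 of 7, lower), choroid plexus (0 of 7), blood (1 of 5, higher), brainstem (0 of 8), forebrain (0 of 2 tested) and cerebellar markers (0 of 7) were read too.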

Additional observations from a re-analysis of the deposited data

Results flagged for a closer look

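Of the 20 groups of 4 libraries formed by the 10 genes in controls and in KI mice, 2 held a library far from the others by Dixon's criterion, where chance gives about 1 in 20. Nefh in KI replicate 3 was at 13086 normalized counts, while the other KI libraries lay between 17921 and 18378. This library was also low in Ttr, Chat and Prph. Stmn2 in control replicate 2 was at 14871 normalized counts, while the other controls lay between 13681 and 13760. That group was tight, and the library differed from the control mean of 14015 by less than the KI libraries differed among themselves.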

How the results depend on the processing

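Over 21 alternatives, the fold changes of the 10 genes kept their direction, except that of Stmn2, which was -0.017 on the log2 scale after the correction for GC content and length. The count of called members, 3, became 6 with DESeq2 (Nefm, Nefh and Map1b besides), 1 with Xist as a covariate (Mapt) and 1 with the GC and length correction (Map2). Leaving out 1 library gave 0 to 5, with 0 without control replicate 2 or KI replicate 2, 1 without control replicate 1 or 3, and 5 without control replicate 4 or KI replicate 4. The 3685 genes called among all tested became 2210 with Xist as a covariate, 2464 with the GC and length correction and 1843 without the pair of libraries low in Ttr, and 888 to 5292 with 1 library left out. The 29 called genes of the related lists became 16 with Xist, 14 without that pair and 18 when rescaled to the pan-neuronal markers, and 5 to 54 with 1 library left out. Higher genes were 49.1% of all calls, against 66.1% after that rescaling and 61.3% without control replicate 2. With the replicate block, limma called 0 members, 0 related genes and 0 of all genes, where 5087 had an unadjusted p under 0.05. The labels give no meaning to a shared replicate number. Deviations of same-numbered libraries correlated at 0.256, -0.117, -0.463 and -0.362 over 15123 genes, and 1 of the 4 controls correlated best with its own number. These values cannot tell which libraries, if any, came from littermates. With 4 libraries per group, the 95% intervals in the report give the uncertainty of each estimate and are not limits of detection. Those of Nefm, Nefh, Map1b and Tubb3 excluded 0, yet these genes were not called at the adjusted threshold. The causes of the fold changes and of their shifts between settings were not tested.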
